A study of Mus musculus with 9 samples.

Results

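DNA methylation was examined along Tet1, the gene inactivated in the mutant, in primordial germ cells of female C57BL/6 mouse embryos at embryonic day 13.5. The CpG sites were the listed ones in 86 kb of chromosome 10, from 62262061 to 62347954 in mouse build mm9, chosen by position as the gene body with 5 kb on each side. Of 18722682 CpG positions listed in the genome, 900 lay there. Of these, 693 had reads in the wild-type (WT) table and 788 in the Tet1-null (Tet1 -/-) table. Whole-genome bisulfite sequencing had been run on 4 WT libraries (1575 to 5251 cells each) and 5 Tet1-null ones (1400 to 4700 cells each). The labels give no description of the mutant allele, of a sort, or of how many embryos gave each library. Each table pools all libraries of its genotype, so every difference is between 2 pools with no replicate check, and intervals cover counting error only. A read is counted at each CpG site that it covers, so read counts here are sums over sites. Intervals and Fisher's exact test take these counts as independent, which they are not where sites share a read. Kit, run and single libraries cannot be told apart from genotype in these tables.

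Tet1 encodes a dioxygenase that oxidises 5-methylcytosine to 5-hydroxymethylcytosine and further products, a route by which DNA methylation can be removed. Its protein carries a CXXC zinc finger that binds DNA and a catalytic domain at the carboxyl end. Primordial germ cells, the embryonic precursors of eggs and sperm, undergo genome-wide demethylation on their way to the gonad, and Tet1 is expressed in them. CpG islands, stretches dense in CpG at many gene starts, are as a rule unmethylated.

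Tet1 lies on the minus strand, so its upstream side has the higher coordinates. The choice of sites took as the gene's start a position 11 bases upstream of the listed CpG at 62342749, which is called the internal start here and was not checked against an annotation of mm9. RefSeq, in build GRCm38.p6, places the promoter of Tet1 at chr10:62887275-62887574 on the minus strand, and its sequence is shown because its CpGs could be found again among the listed sites. It runs from 250 bases before the RefSeq start to 50 after it, in the direction of transcription, with CpGs in capitals.
Tet1 promoter: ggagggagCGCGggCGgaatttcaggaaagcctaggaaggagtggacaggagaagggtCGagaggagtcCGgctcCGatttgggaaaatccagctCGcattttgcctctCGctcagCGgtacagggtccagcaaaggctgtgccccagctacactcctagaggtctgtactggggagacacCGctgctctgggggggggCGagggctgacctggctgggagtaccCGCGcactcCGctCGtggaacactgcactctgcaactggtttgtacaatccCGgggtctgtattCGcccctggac

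All 17 CpGs of this sequence fell on listed mm9 positions at a single place on chromosome 10, with the same spacing, between 62350032 and 62350313. The next best place matched 10. The RefSeq start thus falls at about 62350071 among the listed sites, 7.31 kb upstream of the internal start and outside the 86 kb examined. Of 32851 RefSeq promoters of the same length, 31.4% held 17 or more CpGs, and the median held 7. The windows of 1 kb from 62348001, 62349001 and 62350001 listed 31, 59 and 25 positions, more than any of the 9 windows within about 5 kb of the internal start. RefSeq also annotates a long non-coding RNA gene, Gm51805, that overlaps the upstream part of Tet1.

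Within the gene, the Tet1-null pool carried a methylated stretch around the internal start that the WT pool lacked. In the 3 adjacent 1 kb windows with most CpG positions near that start, chr10:62340001-62343000 and called the start region here, the WT pool held 2 methylated reads of 57, 3.51% (Wilson 95% interval 0.968 to 11.9%). In the Tet1-null pool 57 of 114 were, 50% (41.0 to 59%). The intervals of the pools did not overlap. The difference was 46.5 percentage points (Newcombe 95% counting interval 34.2 to 55.9). The start region is the gene interior as seen from the RefSeq start, 7.07 kb downstream of it.

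Windows of 1 kb traced the stretch from the gene interior to the upstream side. In the Tet1-null pool, 7 of 47 reads were methylated in the window from 62335001, 3 of 13 in that from 62336001 and 1 of 15 in that from 62337001. The level was then 7 of 18 reads in the window ending at 62339000, 22 of 42 from 62339001, 17 of 49 from 62340001, 17 of 30 from 62341001 and 23 of 35 from 62342001. Upstream of the start region it was 6 of 25, 5 of 16, 3 of 39, 1 of 25 and 3 of 23 reads in the windows from 62343001 to 62347001. The level was highest in the window that holds the internal start, at 65.7% (49.2 to 79.2%). This interval overlapped those of the windows from 62339001 (37.7 to 66.6%) and 62341001 (39.2 to 72.6%). In the window of the internal start the WT pool held 2 methylated reads of 12, 16.7% (4.70 to 44.8%). It had no read at the listed sites from 62342288 to 62342682. Tet1-null levels lay between 34.7% and 65.7% in the 5 windows from the CpG at 62338298 to that at 62342999. Over the same 13 windows the WT pool held 5 methylated reads of 240, 2.08% (0.893 to 4.78%), against 115 of 377, 30.5% (26.1 to 35.3%), in the Tet1-null pool. From 62335001 up to the start region the WT pool held 0 of 82 reads, with a Wilson limit of 4.48% (3.66% by the bound of 3 counts that a count of 0 allows). The limits of these 13 windows were set after their values were seen.

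**Figure D1:**
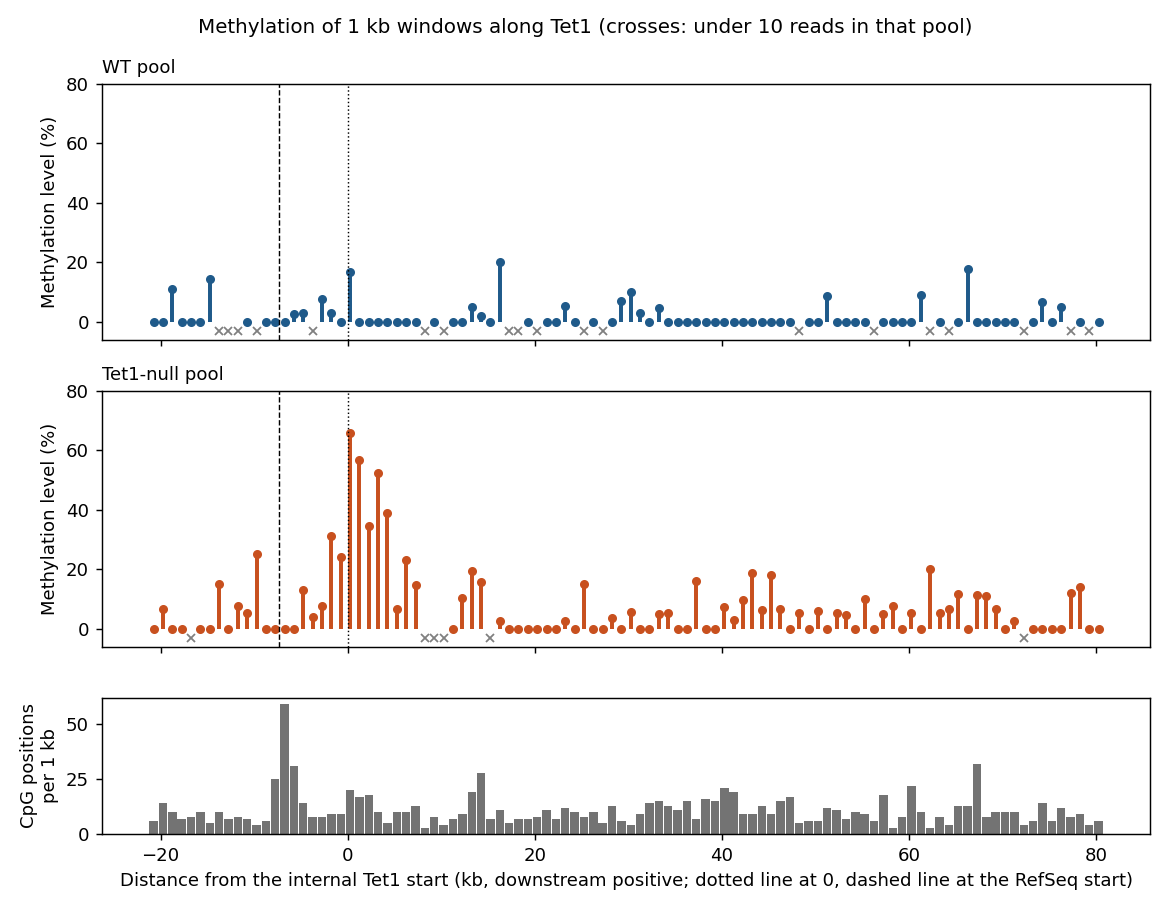
Methylation level (%) of 1 kb windows against distance from the internal Tet1 start (kb, downstream positive) in the WT pool (top) and the Tet1-null pool (middle), with listed CpG positions per window (bottom). Windows with under 10 reads are crosses below 0. Tet1-null levels reach 65.7% (23 of 35 reads) in the window of the internal start, where the WT pool has 2 of 12. The CpG-dense windows by the RefSeq start lie at 0% in the Tet1-null pool.

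The CpG-dense windows that hold the RefSeq promoter had almost no methylated read in either pool. From 62348001 to 62351000, the WT pool held 1 methylated read of 164, 0.610% (0.108 to 3.37%). In the Tet1-null pool it was 0 of 200 reads, with a Wilson limit of 1.88% (1.5% by the bound of 3 counts). Over the 17 CpGs of the printed sequence, 0 of 14 WT reads and 0 of 52 Tet1-null reads were methylated, with Wilson limits of 21.5% and 6.88% (21.4% and 5.77% by the bound of 3 counts). The deepest of these CpGs in the Tet1-null pool, bases 226, 228, 235 and 239 of the sequence counted from its 5′ end, had 7 reads each and no methylated one. The Tet1-null level of these windows lay below the interval of the 5 windows just upstream of the start region (9.08 to 21.1%). Those 5 windows were not even. From 62343001 and 62344001, 6 of 25 and 5 of 16 Tet1-null reads were methylated, against 0 of 22 and 1 of 32 WT reads. In the window from 62345001 both pools were at 7.69%. From 62346001 and 62347001 the Tet1-null pool held 1 of 25 and 3 of 23, against 0 of 2 and 1 of 32 WT reads. The upper limit of the stretch is the edge of the locus, so where the methylated part ended was not located. Further upstream, from 62351001 to 62364000, levels were 3.03% of 165 WT reads and 5.26% of 285 Tet1-null reads, with an interval of the difference from -2.14 to 5.90 points.

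Single sites in the stretch were either fully methylated, partly methylated or unmethylated in the Tet1-null pool. Of 48 sites of the start region with a Tet1-null read, 17 had no methylated read, 12 were between and 19 were at 100%. Among the 18 with 3 or more reads, 4 were at 0%, 9 between and 5 at 100%. In the WT pool 30 of 31 sites were at 0%, and the exception was 62342999 with 2 methylated reads of 2. That site had 0 of 1 in the Tet1-null pool.

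In the whole locus 412 sites had 3 or more reads in the Tet1-null pool, and 17 of them had 3 or more methylated reads. In the WT pool 0 of 241 such sites did. Of the 17, 15 lay in the 13 windows of the stretch, whose limits were set after these values were seen. No share over all autosomal sites is given beside these counts, so they do not set the locus apart from the genome. Mean depth per listed site of the locus was 2.31 reads (WT) and 3.01 (Tet1-null). WT sites thus had less room to reach 3 methylated reads. The sites 62339015 and 62339019 had 5 methylated reads of 5 each in the Tet1-null pool and 0 of 2 in the WT pool. Their neighbours 62339003 and 62339007 had 3 of 5 and 0 of 3. The sites 62341074 and 62341077 had 4 of 4 and 0 of 1. At 62342682, 78 bases downstream of the internal start, 4 of 5 Tet1-null reads were methylated, and the WT pool had no read. Sites this close can share reads. Some sites inside the stretch had few or no methylated reads at the same depth or more, such as 62343975 with 0 of 10 reads and 62345263 with 0 of 10 in the Tet1-null pool, and 62340240 had 1 of 9. These last 3 sites were chosen after their values were seen.

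**Figure D2:**
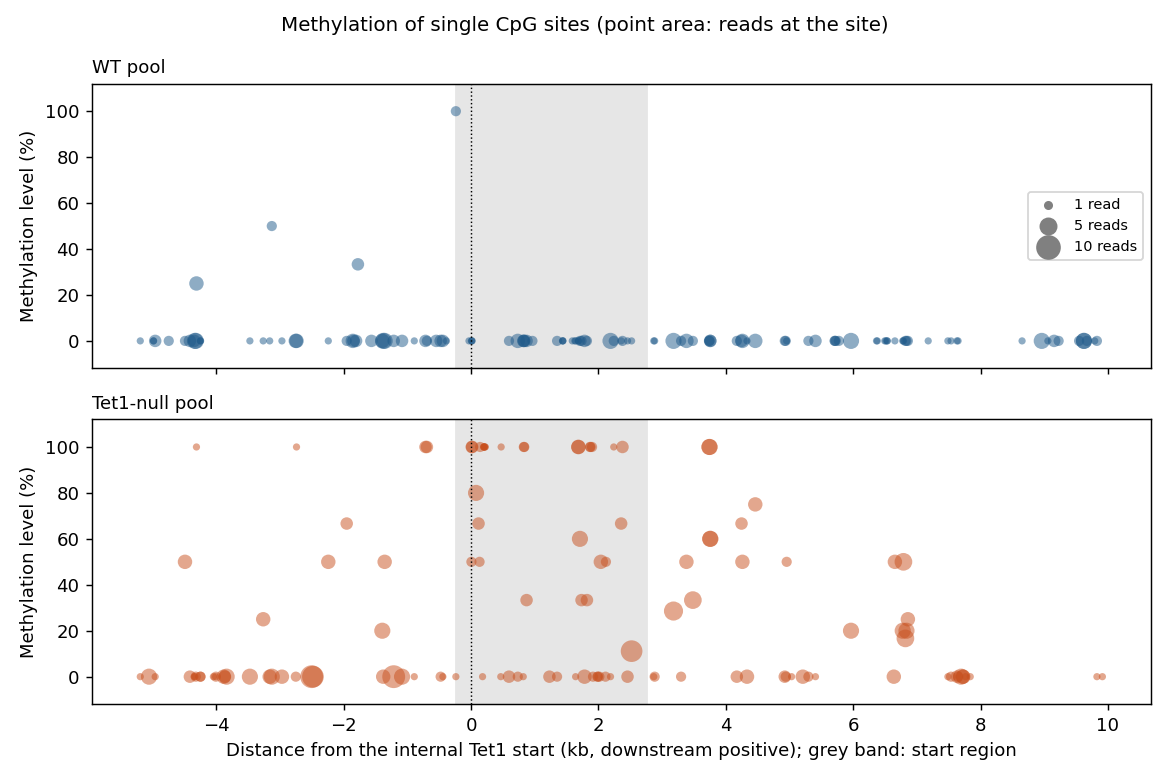
Methylation level (%) of single CpG sites against distance from the internal Tet1 start (kb, downstream positive), WT pool above and Tet1-null pool below, with point area proportional to reads and the start region in grey. Sites at 0% and at 100% lie side by side in the Tet1-null start region, where 19 of 48 sites are at 100%, against 1 of 31 in the WT pool.

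Windows were tested across the genome with Fisher's exact test (two-sided, Benjamini-Hochberg over 372073 windows). Such a test sets the reads of one pool against those of the other, not one genotype against the other. Calls needed a difference of at least 20 points and an adjusted p under 0.05. Of 86 windows in the locus, 28 had the 5 shared positions and 20 reads per pool needed to enter, and 2 of them were called higher in the Tet1-null pool, against 0.097% of all windows. None was called lower, against 0.0637% of all. At an unadjusted p under 0.05 in Fisher's exact test there were 4 higher, beside 2.57% of all windows, and 0 lower, beside 1.91%. The window from 62339001 had 0 of 25 WT and 22 of 42 Tet1-null reads methylated (adjusted p = 0.00423, Fisher's exact test). In that from 62341001, with 0 of 28 and 17 of 30, Fisher's exact test gave an adjusted p of 0.00183. By a quasi-binomial F test that allows for spread between sites the first was lost (adjusted p = 0.0981) and the second kept (adjusted p = 0.0410), beside 0.0185% of all windows called higher by it. After thinning both pools to the same number of reads per site, no window of the locus was called, beside 0.0483% of all. The window from 62339001 then differed by 48 points (adjusted p = 0.0856, Fisher's exact test), and that from 62341001 had too few reads to enter. The other start region windows, from 62340001 and 62342001, could not be tested, since the WT pool held 17 and 12 reads there.

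The tested window with the next largest difference, from 62343001, had 0 of 22 and 6 of 25 reads and did not pass Fisher's exact test (adjusted p = 0.879). The 3 windows with the largest differences in the other direction were from 62291001 (3 of 35 and 0 of 47 reads), 62268001 (2 of 30 and 0 of 38) and 62266001 (1 of 20 and 0 of 35), each with an adjusted p of 1 by Fisher's exact test. Among the 28 tested windows the level was higher in the Tet1-null pool in 17, lower in 3 and equal in 8. The shares of such windows over the genome are not given, so these counts do not set the locus apart. The autosomes together were also higher in the Tet1-null pool (4.08% against 3.41%). The median difference of the 28 windows was 5.07 points, against 0 over all windows tested. Within 500 kb on either side, outside the locus, 306 windows were tested, and neither a higher nor a lower window was called. Of all windows tested, 0.097% were called higher and 0.0637% lower. At those shares, a count of 0 in 306 windows does not set the surroundings apart from the genome.

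On a fixed grid of 3 kb, chosen after seeing the data, the start region is exactly 1 window. There its adjusted p was 1.65e-06 (Fisher's exact test over 601232 windows, 0.0504% of them called higher), and the adjacent window from 62337001 was also called, with 0 of 55 and 30 of 75 reads (adjusted p = 5.63e-05). A difference of 46.5 points or more, higher in the Tet1-null pool, was seen in 39 other windows of the genome. Among the 183659 windows with 50 or more reads in each pool, 1 other window reached it. That floor, too, was set after seeing the data, and the start region had 57 WT reads. The 3 windows of the start region listed 18, 17 and 20 CpG positions. Autosomal 1 kb windows with 10 to 19 positions were at 3.5% (WT) and 4.36% (Tet1-null), and those with 20 to 39 at 5.63% and 6.81%. The WT interval of the start region included both WT values, and its Tet1-null interval lay above both Tet1-null values.

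**Figure D3:**
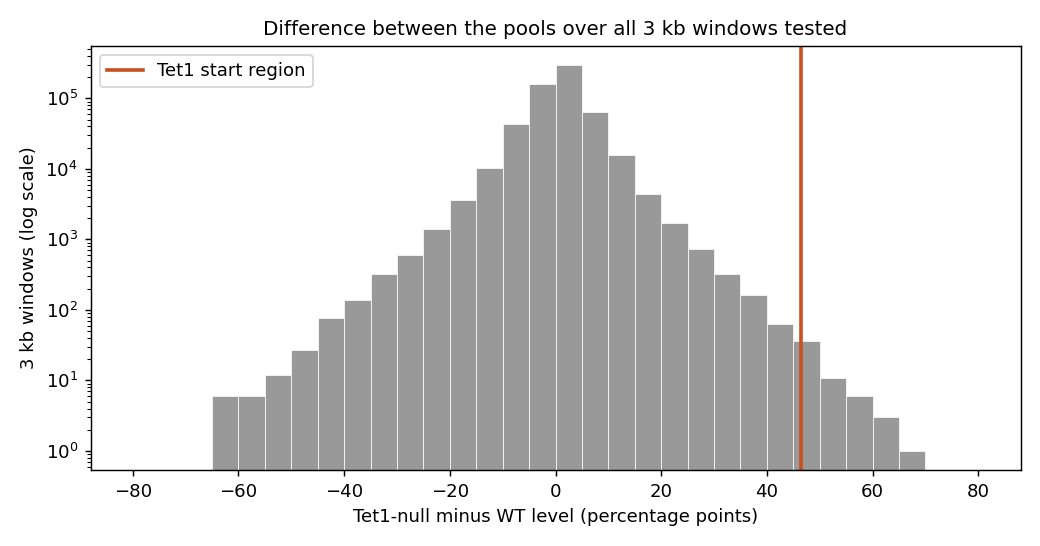
Number of 3 kb windows of the genome (log scale) against the Tet1-null minus WT level in percentage points, over all 601232 windows tested. The Tet1 start region (line, 46.5 points) lies in the far upper tail, where 39 other windows are at or beyond it.

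Reads of neighbouring sites are not independent, and the start region was read thinly. With sites at least 100 bp apart, 2 of 24 WT reads and 15 of 43 Tet1-null reads were methylated, a difference of 26.6 points (5.05 to 42.7). At the 24 sites read in both pools, the levels were 2 of 49 and 32 of 68 reads, a difference of 43.0 points (28.1 to 55.0). Only 2 sites reached 3 reads in each pool, with 0 of 6 and 1 of 7 reads methylated, a difference of 14.3 points whose interval (-26.5 to 51.3) included 0. With at least 2 reads in each pool, a setting chosen after seeing the data, the 11 sites held 0 of 28 and 13 of 32 methylated reads.

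Along the rest of the gene body the Tet1-null level was higher by a smaller amount. From the CpG at 62267034 to 62335000, 21 of 1307 WT reads were methylated, 1.61% (1.05 to 2.44%), against 92 of 1858 Tet1-null reads, 4.95% (4.05 to 6.03%), a difference of 3.34 points (2.12 to 4.56). The autosomes together were at 3.41% (WT) and 4.08% (Tet1-null). Among autosomal tiles of the same 68 kb, the median difference was 0.647 points, 21.1% had a counting interval above 0, and 4.59% had a difference at least as large. The WT level of this part lay under the tiles' median of 2.78% and the Tet1-null level above their median of 3.45%. These limits, too, were set after the values were seen.

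The difference was not even along those 68 kb. In steps of 10 kb from the 3′ end, WT and Tet1-null levels were 2.73% and 4.98%, then 1.57% and 5.33%, then 1.44% and 3.15%. They were 0% of 209 reads and 6.12% of 392 reads from 62297001, 1.83% and 1.91% from 62307001, and 2.29% and 2.12% from 62317001. In the last 8 kb before the stretch, from 62327001, they were 1.80% of 167 reads and 13.6% of 169 reads, a difference of 11.8 points (6.31 to 17.9). The steps from 62307001 and 62317001 had differences whose intervals included 0 (-2.90 to 2.54 and -4.57 to 2.96 points). The same held for the step at 2.73% (WT) and 4.98% (Tet1-null), with an interval of -1.78 to 5.82 points. It also held for the step at 1.44% (WT) and 3.15% (Tet1-null), with an interval of -1.45 to 5.06 points. The last step held a pair of sites with 3 methylated reads, 62328445 (3 of 7) and 62328480 (3 of 5). They lay in a window of 28 positions from 62328001, with 1 of 55 WT reads and 12 of 76 Tet1-null reads methylated. The adjacent window from 62329001 had 2 of 40 and 8 of 41. Tet1-null levels of these windows, 15.8% and 19.5%, were above the 14.9% of the first window of the stretch, from 62335001, with overlapping intervals. The lower limit of the stretch is thus not sharp.

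Over the gene body up to the start region, from the CpG at 62267034 to that at 62339892, the levels were 1.51% and 6.62%, a difference of 5.11 points (3.83 to 6.40). The upstream flank, from the CpG at 62343147 to that at 62347954, was at 3 of 101 and 18 of 128 reads, a difference of 11.1 points (3.75 to 18.4). The downstream flank was at 1 of 56 and 10 of 139 reads, and its interval (-2.91 to 11.1 points) included 0. Over all 86 kb, 27 of 1603 WT reads and 217 of 2374 Tet1-null reads were methylated, 1.68% (1.16 to 2.44%) and 9.14% (8.05 to 10.4%). The difference of 7.46 points (6.13 to 8.79) stood beside a median of 0.644 points over 27833 autosomal tiles of 86 kb, of which 23.9% had a counting interval above 0. A difference at least as large was seen in 47 tiles, or 0.169%. The level on chrM was 1.66% (WT) and 1.29% (Tet1-null).

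Read depth was compared along the gene, since a homozygous deletion of CpG-bearing sequence would leave Tet1-null reads missing. Tet1-null reads over the locus numbered 2374 against 1603 in the WT pool. Scaled by the reads of all autosomal sites, the ratio was 0.964 (exact 95% counting interval 0.904 to 1.03). Of the 900 positions, 64.6% were listed in both pools, 12.4% in WT only and 23.0% in Tet1-null only, beside 60.8%, 12.5% and 26.6% of autosomal positions. The start region had 57 and 114 reads, a scaled ratio of 1.30 (0.939 to 1.82), so its sequence was present in the Tet1-null pool.

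Of 16 windows of 5 kb in the locus, scaled ratios ran from 0.466 to 1.55 with a median of 0.939, beside a median of 0.990 over 470269 autosomal windows. One was called low at a ratio of 0.5 or less, against 1.81% of all windows, and none high at 2 or more, against 2.54%. The low window, from 62330001 to 62335000, had 60 WT reads and 43 Tet1-null reads, a ratio of 0.466 (0.308 to 0.701). It holds a gap of 1988 bases between 62332934 and 62334923 in which 10 positions had 27 reads in the WT pool and no read in the Tet1-null pool. The gap was found by looking at the values. It lies on the gene-interior side of the methylated stretch, just before its first window. Among 1 kb windows with 20 or more WT reads at 5 or more positions, 0.0338% of 458403 in the genome had no Tet1-null read, and in the locus 1 of 36 did. With windows of 10 kb no window of the locus was called low, beside 0.365% of all. Whether the gap is missing sequence or missing coverage was not tested.

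**Figure D4:**
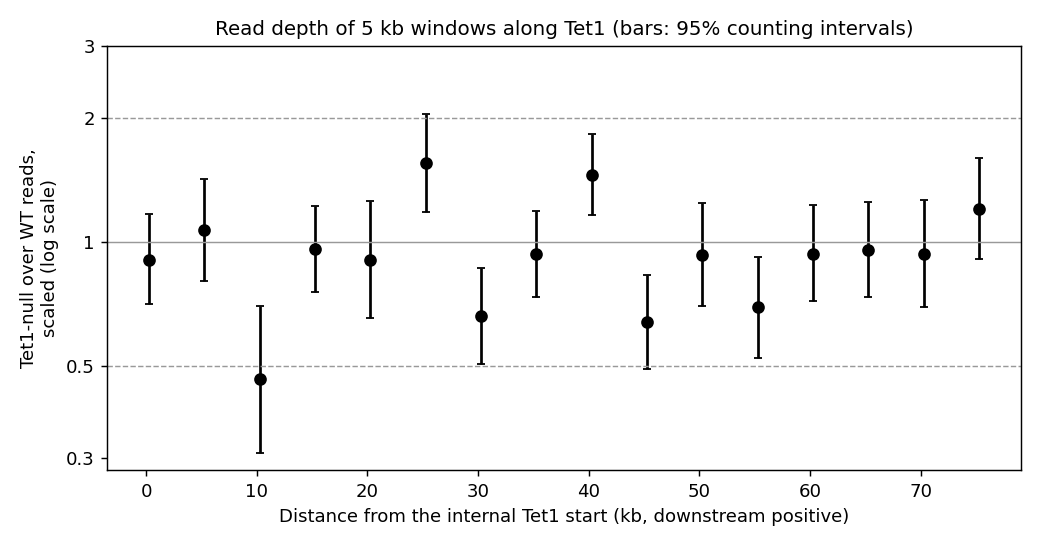
Tet1-null over WT reads in 5 kb windows, scaled by autosomal reads (log scale), against distance from the internal Tet1 start (kb, downstream positive), with exact 95% counting intervals. The window 10 kb downstream of the start is lowest, at 0.466, and the others lie between 0.640 and 1.55.

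The starts of other genes that write, bind, oxidise or repair methylated cytosine were read from RefSeq promoters placed by the same CpG spacing. Of 18 listed genes other than Tet1, 13 could be placed, at 16 promoters. In the 1 kb around them, levels ran from 0 to 8.70% with a median of 2.07% (WT), and from 0 to 4.93% with a median of 2.14% (Tet1-null). The counting interval of the difference lay above 0 at none of the 16 and below 0 at 1, a promoter of Dnmt1, the maintenance methyltransferase, with 2 of 23 and 2 of 172 reads. Among 583964 windows of 1 kb with 10 or more positions and 10 or more reads in each pool, it lay above 0 in 2.43% and below 0 in 2.34%. The windows of the paired promoters of Dnmt1 and of Ogt, an O-GlcNAc transferase, overlap and share reads. The highest Tet1-null level was at Ung, a uracil DNA glycosylase, with 7 of 142 reads.

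Tet2 and Tet3, the other members of the dioxygenase family, had 2 of 92 and 1 of 44 methylated Tet1-null reads, against 4 of 125 and 6 of 99 WT reads. At Tdg, the glycosylase that removes oxidised cytosines, the values were 2 of 92 and 0 of 59. The de novo methyltransferase genes had 2 of 105 Tet1-null reads methylated at Dnmt3a and 2 of 95 at Dnmt3b. At Uhrf1, which recruits the maintenance enzyme, the Tet1-null values at the pair of promoters were 3 of 93 and 4 of 148. The Tet1 RefSeq promoter had 0 of 92 Tet1-null reads methylated in its 1 kb, within the range of the 16 other promoters (0 to 4.93%). None of the 16 was near the 50% of the Tet1 start region. That region spans 3 kb of the gene interior as seen from the RefSeq start, so it is not a like part of the gene. The comparison covers RefSeq starts only, and stretches inside the other genes were not examined here.

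**Figure D5:**
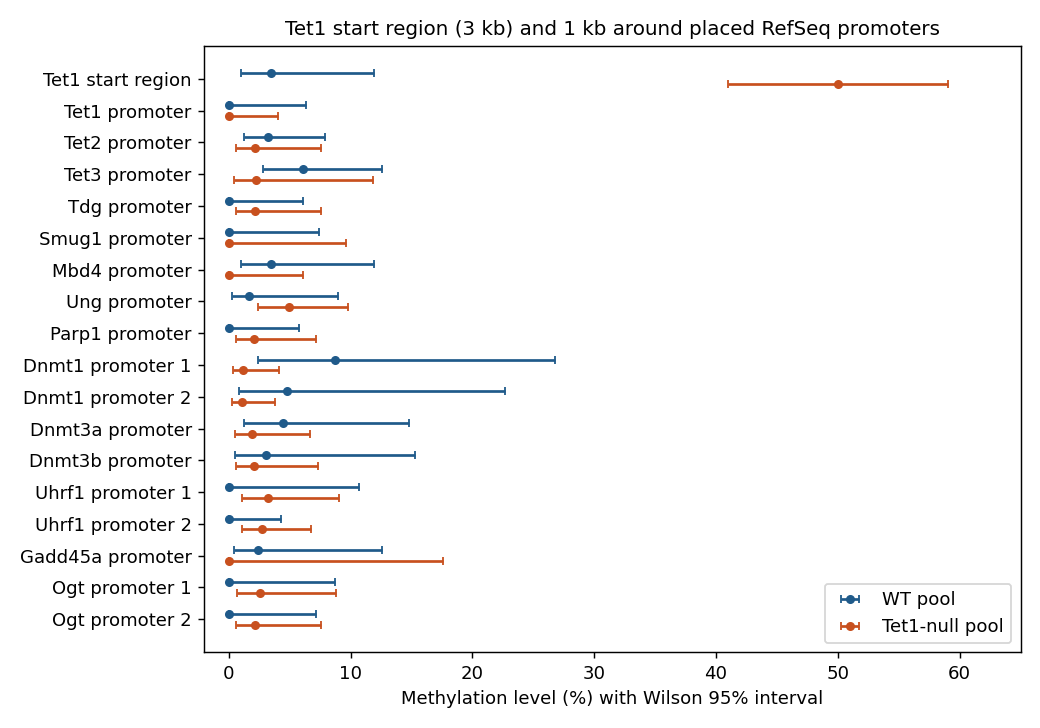
Methylation level (%) with Wilson 95% intervals in the Tet1 start region (3 kb) and in 1 kb around 17 placed RefSeq promoters, that of Tet1 included, WT pool in blue and Tet1-null pool in orange. Tet1-null levels of the promoters are at most 4.93%, and that of the Tet1 start region, which is not a RefSeq promoter, is 50%.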

How the data were processed

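The authors deposited 1 table per genotype that gives, for each CpG, a methylation level (fraction) and a count of reads. Their product was whole at 100% of sites, within 0.0005 per read. Per the labels' protocols, Tn5-tagged DNA was converted with a Sigma or Zymo kit (2 and 2 WT libraries, 2 and 3 Tet1-null libraries) and amplified. The submitters' processing notes name mm9 and bedtools. The aligner and the handling of duplicates were not given in the sources used here. Among the deposited files, a filter script removes poorly converted reads, which can lower levels. Without molecular identifiers PCR copies may be counted more than once, so intervals cover counting error only. Bisulfite does not separate 5-methylcytosine from 5-hydroxymethylcytosine. Mean depth per listed autosomal site was 2.21 reads (WT) and 2.85 (Tet1-null).

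Reads were summed with scipy 1.17.1, numpy 2.4.6 and pandas 2.3.3 in Python 3.11.15, and plots were made with matplotlib 3.10.9. Positions are the BED starts plus 1. RefSeq promoters with at least 8 CpGs were placed where at least 90% of CpGs met listed positions at a unique place on their chromosome and the next best place met at most 70%. The window calls by Fisher's exact test and the read-depth calls were tested on simulated data with independent counts. The simulation did not cover the other procedures, or reads shared between sites. The rule for named windows took those of the start region, those called, and the 3 largest rises and falls. The other windows named, along the stretch and from 62328001 and 62329001, were picked with their values in view. The rule for named sites took those with 3 or more methylated reads in a pool and, in the start region, each with a methylated read where a pool had 10 or fewer. The sites 62343975, 62345263 and 62340240 fall outside it. The gene, the limits of the locus and the lists were chosen with earlier results of these data known. Alternatives were site minimums, weights, spacing, thinning, windows, tests and scalings. Exons, repeats and the sequence of the stretch were not analysed here, since no genome of the build was used.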

Additional observations from a re-analysis of the deposited data

How the results depend on the processing

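Of the alternatives to the differences, counts and ratios, 42 kept to the 95% interval of the value (or to 1.5 times a count). Beyond it moved 11, and 0 reversed. The 42 include counts of windows called lower that stayed at 0. They also include the start region without the deepest sites, unchanged at 2 of 57 and 57 of 114 reads. Counts of windows called higher or lower could only be labelled as kept or moved. The tally is thus no measure of robustness. The start region difference became 14.3 points with a site minimum of 3 reads per pool, 26.6 at sites at least 100 bp apart and 59.4 within 1 kb of the internal start. At spaced sites the whole locus was at 5.38 points. The gene body without the stretch was at 3.34 points. Windows called higher numbered 1 by the quasi-binomial test and 0 with reads thinned to equal depth, where 12 windows of the locus, and not that from 62341001, had enough reads. Over the alternatives, the adjusted p of the window from 62339001 ran up to 0.0981 and that of 62341001 up to 0.0410. Windows of low depth numbered 0 with 10 kb windows and 3 of 16 at a fold of 1.5 (10.1% of all autosomal windows). Those of high depth numbered 5 of 43 with 2 kb windows (7.44% of all) and 1 of 16 at a fold of 1.5 (10.3% of all). The causes were not tested. Thinning leaves fewer windows and reads. No paired analysis was possible because the tables pool each genotype's libraries, and leaving out libraries was not run for the same reason. Depth limits single sites, since the start region had 1.84 WT and 2.38 Tet1-null reads per listed site.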
